A study of Mus musculus with 12 samples.

Results

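The genes described here encode tumour necrosis factor (TNF) and interleukin 6 (IL6) and components of the signalling that joins them to the transcription factors NF-kB and STAT3. They were Tnf, Il6, Osmr, Socs3, Nfkbia, Nfkb1, Nfkb2, Relb, Tnfaip3 and Birc3, chosen by name with earlier results of these data known. A probe set was taken as a member where its single platform symbol was 1 of these names. Of the 10 genes, 9 had such a probe set, 1 each, among 30063 named genes, and 8 were tested among 20102. Il6 was measured but not tested, because it lay below the array median on all 12 arrays. Nfkb1 was not analysed here.

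RNA came from whole seminal vesicles, the paired glands that make most of the seminal fluid, of male C57BL/6 mice at week 10. Pups had received diethylstilbestrol (DES), a synthetic estrogen, at 2 µg per pup per day from day 1 to day 5 of life by injection under the skin, and controls had the carrier, corn oil, with nothing added (vehicle). Animals were either wild type (WT) or estrogen receptor alpha knockouts (aERKO), and each of the 4 groups was measured on 3 Affymetrix arrays. WT_vehicle mice were wild type and had corn oil. WT_DES mice were wild type and had DES in corn oil. The aERKO_vehicle mice were knockouts with corn oil, and the aERKO_DES mice were knockouts with DES in corn oil. The labels give neither the knockout allele nor whether the 3 samples of a group were separate animals. The p-values therefore measure the spread between samples alone, and that spread may be technical.

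TNF binds its receptors and activates the IkB kinase, which marks the inhibitor IkB for destruction and lets NF-kB dimers enter the nucleus. There they switch on inflammatory genes and, with these, genes of their own brakes. IL6 and oncostatin M act through receptors that share the gp130 chain and activate JAK kinases and STAT3, whose target Socs3 shuts the receptor down. A second NF-kB route, driven by receptors such as that of lymphotoxin, processes the Nfkb2 product to p52, which pairs with RelB.

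Values are log2 expression, so a difference of 1 is 2-fold. Array medians lay between 5.95 and 6.14, and arrays of a group correlated at 0.982 to 0.996 across tested genes. Arrays of WT_DES correlated with those of the other groups at 0.867 to 0.919. Esr1, the targeted gene, was lower in aERKO than in WT by a log2 difference of -0.76 given vehicle and of -0.76 given DES. The defining secretory genes of the gland were abundant in all groups. The mean over 8 of them was at least 13.32 on every array. Precision is limited by the number of arrays.

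In the WT gland, neonatal DES was followed at week 10 by higher transcripts of 6 of the 8 tested members. Osmr, the receptor subunit for oncostatin M, was 6.62-fold higher than with vehicle. Tnfaip3, which encodes the NF-kB brake A20, was 3.83-fold higher, and Tnf itself was 3.47-fold higher. Birc3, an inhibitor-of-apoptosis ubiquitin ligase of the TNF receptor complex, was 2.23-fold higher. Nfkbia, the gene of IkB alpha, was 1.90-fold higher and Nfkb2 1.64-fold higher. Socs3 and Relb did not pass the test. In aERKO no member passed in either direction.

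The calls are from limma at a Benjamini-Hochberg adjusted p below 0.05. In the comparison of DES with vehicle in WT, 20.7% of all genes tested were called higher, against 6 of 8 members, and none of the 8 was called lower, against 23.3%. Because the members were chosen with earlier results known, these shares are a description and no test of the set. At least 2-fold higher and called were 4 of the 8 members and 4.59% of all genes tested. The median difference of the 8 members was 1.04, and that of all genes tested was -0.05. All 8 lay above the array median on all 12 arrays, so none entered the test through its WT_DES level alone. RNA was taken from the whole gland, so more cells of a type and more RNA per cell cannot be told apart. The summed linear level of 7 macrophage markers moved with the members, from 1120 to 1392 in WT_vehicle up to 10152 to 13628 in WT_DES, and its part in the result was not tested.

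**Figure D1:**
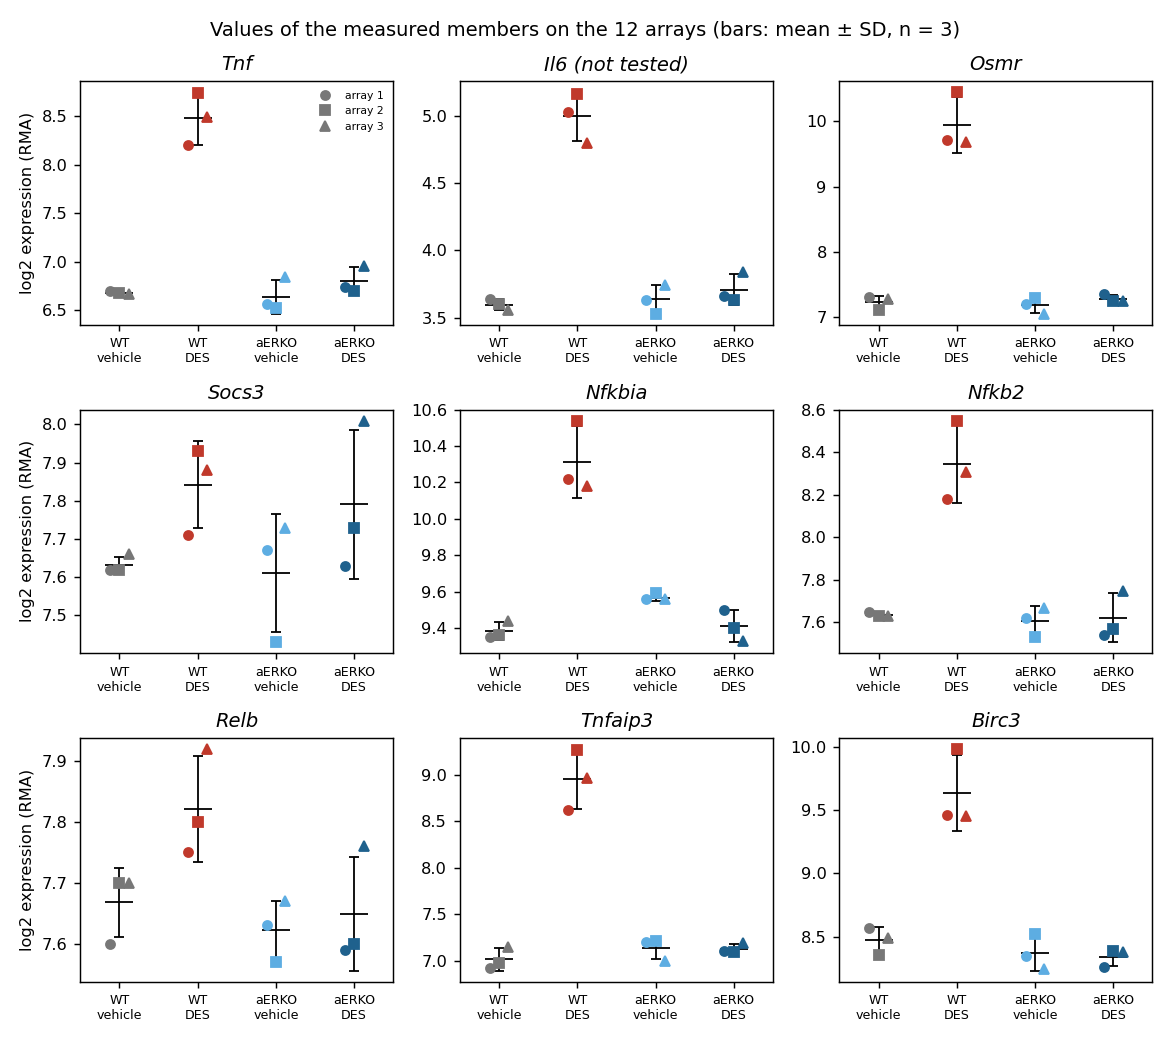
Log2 expression of the 9 measured members on each of the 12 arrays, by group, with array numbers as marker shapes and black bars for the mean ± SD of 3 arrays. Each panel has its own axis, which does not start at 0. All 3 WT_DES values stand above the other 9 for Tnf, Il6, Osmr, Nfkbia, Nfkb2, Tnfaip3 and Birc3, but not for Socs3 or Relb.

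Several of these genes are textbook targets of the factors they regulate, so the promoter windows of the members were searched for binding motifs. The RefSeq table for GRCm38.p6 held 11 windows for 8 members, each from 250 bases before to 50 bases after a start site. The kappa B consensus, searched on both strands, was found in windows of 4 members, Il6, Nfkbia, Nfkb2 and Tnfaip3. It was in 6 of the 11 windows of the 8 members and in 4.51% of the 32851 windows of the table. Of the 6, 3 belong to Nfkb2, and 2 of these overlap and share a match. The STAT motif TTCNNNGAA, which reads the same on both strands, was found in 2 of the 11 windows, of Socs3 and Nfkb2, and in 8.3% of all windows. It overlapped no kappa B match in these windows. A match is a description of the letters, not evidence of binding.

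For each of 5 members, 1 window with matches is shown because it belongs to a feedback inhibitor of each route (Nfkbia, Tnfaip3, Socs3), to the cytokine and to the NF-kB subunit gene. Capitals mark the matches, all sequences run 5′ to 3′ on the gene's strand, and positions count from 0 at the start site.
Nfkbia, chr12:55492598-55492897, minus strand, with a kappa B match at -29 to -20: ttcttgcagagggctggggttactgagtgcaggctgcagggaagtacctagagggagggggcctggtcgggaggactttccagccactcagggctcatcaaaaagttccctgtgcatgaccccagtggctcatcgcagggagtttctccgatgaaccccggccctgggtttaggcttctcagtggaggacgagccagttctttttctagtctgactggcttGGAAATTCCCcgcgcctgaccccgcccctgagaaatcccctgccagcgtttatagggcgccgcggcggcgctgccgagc
Tnfaip3, chr10:19015361-19015660, minus strand, with kappa B matches at -125 to -116 and -12 to -3: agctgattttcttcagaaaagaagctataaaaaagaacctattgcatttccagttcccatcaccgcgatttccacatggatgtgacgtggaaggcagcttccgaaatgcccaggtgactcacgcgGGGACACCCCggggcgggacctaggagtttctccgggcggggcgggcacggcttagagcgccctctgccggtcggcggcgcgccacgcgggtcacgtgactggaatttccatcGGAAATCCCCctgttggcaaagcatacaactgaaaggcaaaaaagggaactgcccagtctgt
Nfkb2, chr19:46304487-46304786, plus strand, with overlapping kappa B matches between -39 and -29, another at -11 to -2 and the STAT motif at -148 to -140: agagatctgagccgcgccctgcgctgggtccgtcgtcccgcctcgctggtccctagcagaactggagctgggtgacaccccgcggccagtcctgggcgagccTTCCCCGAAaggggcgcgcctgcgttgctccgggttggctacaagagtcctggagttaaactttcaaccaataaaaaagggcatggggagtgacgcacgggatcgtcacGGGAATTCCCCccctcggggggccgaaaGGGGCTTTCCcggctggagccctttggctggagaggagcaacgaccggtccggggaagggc
Il6, chr5:30012864-30013163, plus strand, with a kappa B match at -44 to -35: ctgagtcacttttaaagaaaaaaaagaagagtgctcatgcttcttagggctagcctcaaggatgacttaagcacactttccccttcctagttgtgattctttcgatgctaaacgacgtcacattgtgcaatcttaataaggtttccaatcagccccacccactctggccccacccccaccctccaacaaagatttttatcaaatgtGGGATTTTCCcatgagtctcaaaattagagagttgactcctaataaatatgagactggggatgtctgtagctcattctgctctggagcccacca
Socs3, chr11:117969317-117969616, minus strand, with the STAT motif at -154 to -146: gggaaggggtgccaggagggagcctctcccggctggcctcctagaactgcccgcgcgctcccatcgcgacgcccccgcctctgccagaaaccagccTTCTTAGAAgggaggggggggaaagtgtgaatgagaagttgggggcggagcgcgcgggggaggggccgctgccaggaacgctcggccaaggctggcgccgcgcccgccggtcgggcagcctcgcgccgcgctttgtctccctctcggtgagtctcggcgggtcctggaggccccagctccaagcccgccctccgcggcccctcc
Of the genes whose windows are shown, Nfkbia, Tnfaip3 and Nfkb2 were called higher in WT_DES. Socs3 was not called, and Il6 was not tested. The Nfkb2 window shown holds both motifs, and whether a motif goes with the response was not tested. Tnf, Osmr and Birc3, which rose too, had no match to either motif in their windows.

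The cytokine gene Tnf, expressed by macrophages, lymphocytes and other cells, read 6.70, 6.68 and 6.67 on WT_vehicle arrays 1 to 3 and 8.20, 8.74 and 8.49 on WT_DES arrays 1 to 3. In aERKO it read 6.56, 6.52 and 6.84 with vehicle and 6.74, 6.70 and 6.96 with DES. The 3 WT_DES arrays stood above the other 9, which overlapped among themselves. The difference between DES and vehicle in WT was 1.80 ± 0.13 (SE; limma adjusted p = 2.82e-07), from 6.68 ± 0.015 (SD, n = 3) to 8.48 ± 0.27. A larger difference was found for 2.06% of all genes tested.

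Il6, the ligand of the gp130 route, was dim throughout. It read 3.64, 3.60 and 3.56 in WT_vehicle and 5.03, 5.16 and 4.80 in WT_DES. With the knockout it read 3.63, 3.53 and 3.74 given vehicle and 3.66, 3.63 and 3.84 given DES. The WT_DES arrays again stood above the other 9. The 23 background control sets of the array averaged 5.31 in WT_vehicle and 4.87 in WT_DES, so Il6 lay under that mean on all WT_vehicle arrays and near it in WT_DES. These controls ranged from 2.09 to 9.06 with their base composition, so 1 mean is only a rough guide. Without the filter on dim genes, the Il6 difference in WT was 1.40 (limma adjusted p = 3.54e-07), but the size of a difference from such a baseline is uncertain.

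The receptor subunit Osmr pairs with gp130 to bind oncostatin M and is found on fibroblasts, endothelium and epithelia. It showed the largest difference of the 8 tested members in WT. Its values were 7.30, 7.11 and 7.27 in WT_vehicle and 9.72, 10.45 and 9.69 in WT_DES. In aERKO_vehicle they were 7.20, 7.29 and 7.05, and in aERKO_DES 7.35, 7.24 and 7.24. No WT_DES value came near those of the other groups. The WT difference was 2.73 ± 0.16 (SE; limma adjusted p = 5.21e-08), and 1.05% of all genes tested had a larger one.

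Socs3, the feedback inhibitor of the IL6 receptor chain, differed little. It read 7.62, 7.62 and 7.66 in WT_vehicle and 7.71, 7.93 and 7.88 in WT_DES. In aERKO it read 7.67, 7.43 and 7.73 with vehicle and 7.63, 7.73 and 8.01 with DES. The highest of the 12 values thus came from an aERKO_DES array, and the groups other than the WT pair overlapped. The WT difference was 0.21 with a 95% interval of -0.02 to 0.44 (limma adjusted p = 0.115). It was called (0.57, adjusted p = 0.00912) when arrays were shifted to the hybridization controls, RNAs added to each sample at hybridization, a setting that raised the median of all genes tested to 0.31.

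Among the NF-kB brakes, Tnfaip3 encodes a ubiquitin-editing enzyme that switches off the TNF receptor complex. It read 6.92, 6.98 and 7.15 in WT_vehicle and 8.62, 9.27 and 8.97 in WT_DES. Its aERKO values were 7.20, 7.21 and 7.0 with vehicle and 7.10, 7.09 and 7.19 with DES. WT_DES stood apart from the other 9 arrays, whose values spanned 6.92 to 7.21. The WT difference was 1.94 ± 0.13 (SE; limma adjusted p = 1.96e-07).

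Nfkbia encodes IkB alpha, which holds NF-kB dimers in the cytoplasm and is resynthesised when they are active. It read 9.35, 9.36 and 9.44 in WT_vehicle and 10.22, 10.54 and 10.18 in WT_DES. In aERKO_vehicle it read 9.56, 9.59 and 9.56, and in aERKO_DES 9.50, 9.40 and 9.33. The WT difference was 0.93 ± 0.09 (SE; limma adjusted p = 5.02e-06). All 3 aERKO_vehicle arrays also lay slightly above the WT_vehicle arrays, by 0.18 on average, without a call (limma adjusted p = 1.0). The aERKO_vehicle arrays lay wholly above the WT_vehicle arrays for 6.42% of all genes tested.

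Birc3, the cellular inhibitor of apoptosis that adds ubiquitin to the TNF receptor complex, read 8.57, 8.36 and 8.49 in WT_vehicle and 9.46, 9.98 and 9.45 in WT_DES. In aERKO it read 8.35, 8.52 and 8.25 with vehicle and 8.26, 8.39 and 8.38 with DES. The WT_DES values again lay above all others. The WT difference was 1.16 ± 0.13 (SE; limma adjusted p = 1.63e-05).

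Of the 2 subunit genes of the second NF-kB route, 1 was called. Nfkb2, the p100 precursor of p52, read 7.65, 7.63 and 7.63 in WT_vehicle and 8.18, 8.55 and 8.31 in WT_DES. In aERKO_vehicle it read 7.62, 7.53 and 7.67, and in aERKO_DES 7.54, 7.57 and 7.75. Its WT difference was 0.71 ± 0.09 (SE; limma adjusted p = 6.21e-05), with WT_DES above all 9 other arrays.

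Relb, the partner of p52, read 7.60, 7.70 and 7.70 in WT_vehicle and 7.75, 7.80 and 7.92 in WT_DES. With the knockout it read 7.63, 7.57 and 7.67 given vehicle and 7.59, 7.60 and 7.76 given DES. The 2 WT groups did not overlap, a separation in the higher direction shared by 25.8% of all genes tested, but an aERKO_DES array at 7.76 exceeded the lowest WT_DES array. The WT difference was 0.15, with a 95% interval of 0.0011 to 0.31 before adjustment (limma adjusted p = 0.092). It was called with arrays shifted to the hybridization controls (0.51, adjusted p = 0.0093). Whether the Nfkb2 and Relb responses differ from each other was not tested.

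**Figure D2:**
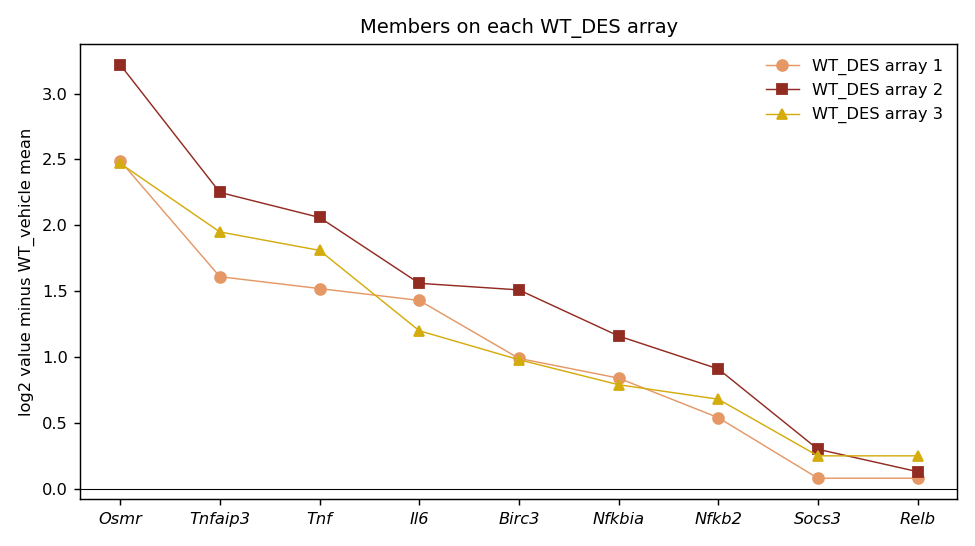
Log2 value of each measured member on WT_DES arrays 1 to 3 minus its WT_vehicle mean, with members ordered by the mean of the 3 arrays; lines join the values of an array. Array 2 was the highest for 8 of the 9 members, with Osmr at 3.22 against 2.49 and 2.47.

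Set against the WT_vehicle mean, the 3 WT_DES arrays gave Osmr differences of 2.47 to 3.22, clear of the next member. Those of Tnfaip3 (1.61 to 2.25) and Tnf (1.52 to 2.06) overlapped, as did those of Tnf and Il6 (1.20 to 1.56). Birc3 (0.98 to 1.51) overlapped Il6 and Nfkbia (0.79 to 1.16), and Nfkbia overlapped Nfkb2 (0.54 to 0.91). A gap followed before Socs3 (0.08 to 0.30) and Relb (0.08 to 0.25). The order is of differences, since probe sets of different genes do not share a scale of level. WT_DES array 2 was the highest for every measured member but Relb, and it was also the highest for 79% of all genes called higher in this comparison. On that array the sums of macrophage, neutrophil and fibroblast marker levels were the highest of the 3 as well. So were those of B and plasma cell, T cell, endothelial and epithelial markers, but not those of smooth muscle, secretory and adipocyte markers. The part of these sums in the order of the arrays was not tested. Without that array, 6 members were still called higher in WT.

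DES had no detected effect on these genes in aERKO. With limma, none of the 8 members passed at an adjusted p below 0.05, and none had an unadjusted p below 0.05. Over all genes tested, 0% were called and 264 had an unadjusted p below 0.05. The member differences ran from -0.16 for Nfkbia to 0.18 for Socs3, with a median of 0.02. The 95% intervals were -0.25 to 0.45 for Osmr, -0.11 to 0.44 for Tnf, -0.30 to 0.28 for Tnfaip3 and -0.30 to 0.25 for Birc3. For Nfkbia the interval was -0.35 to 0.04 and for Nfkb2 -0.18 to 0.21. The intervals of these 6 genes excluded the sizes seen in WT. Il6 lay between 3.53 and 3.84 on all 6 aERKO arrays. Array 3 of aERKO_DES was the highest of its group for 6 of the 9 measured members, among them Tnf at 6.96 and Socs3 at 8.01.

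The difference between the WT and aERKO responses was itself tested. In this interaction 6 of the 8 members were called, all with the larger response in WT, against 14.1% of all genes tested. The response of Osmr was larger in WT by 2.63 ± 0.23 (SE; limma adjusted p = 4.4e-06), that of Tnfaip3 by 1.95 ± 0.19 (1.08e-05) and that of Tnf by 1.63 ± 0.18 (3.53e-05). For Birc3 the difference was 1.19, for Nfkbia 1.08 and for Nfkb2 0.69 (limma adjusted p = 0.0022). Socs3 differed by 0.03 with a 95% interval of -0.29 to 0.35, and Relb by 0.13 with an interval of -0.09 to 0.34, so neither was called.

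**Figure D3:**
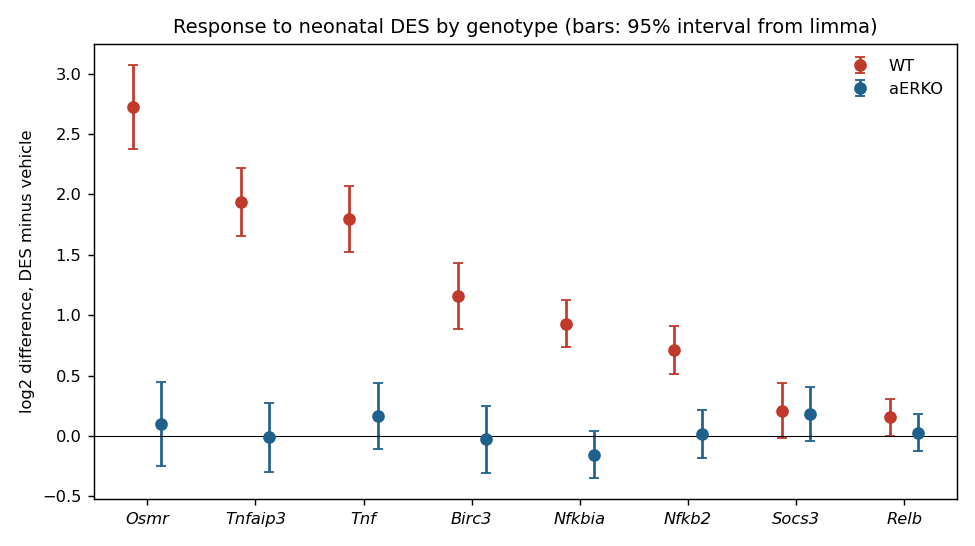
Log2 difference between DES and vehicle for the 8 tested members in WT (red) and aERKO (blue), with 95% intervals from limma. In WT the values fall from 2.73 for Osmr to 0.15 for Relb, and in aERKO every interval includes 0.

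Given vehicle, the genotypes did not differ detectably in these genes. No member was called by limma, none had an unadjusted p below 0.05, and 0.0249% of all genes tested were called. Given DES, 6 of the 8 members were lower in aERKO than in WT, against 24.6% of all genes tested. Osmr was lower by a log2 difference of -2.67, Tnfaip3 of -1.83, Tnf of -1.68 and Birc3 of -1.29. The difference was -0.90 for Nfkbia and -0.73 for Nfkb2. Relb had a difference of -0.17 (limma adjusted p = 0.0549), which 6 of 23 alternative settings called, among them leaving out WT_DES array 1 or aERKO_DES array 3, and Socs3 one of -0.05. These comparisons share arrays with those above and are no separate evidence. Over the 4 groups, WT_DES stood above the other 9 arrays for 7 of the 9 measured members, 6 of them tested, and for 20.7% of all genes tested.

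The wider signalling network was read from 10 lists of pathway genes, also chosen with earlier results of these data known. They held 171 genes beside the members, of which 144 were tested. After DES in WT 82 (56.9%) were higher and 17 (11.8%) lower, against 20.7% and 23.3% of all genes tested, and the median was 0.32 against -0.05. Scaling moved this split. A shift of all arrays to 1 median gave 77 higher and 19 lower, where 3404 and 7115 of all 20102 genes were called. A shift to the hybridization controls gave 108 and 2, where 8345 and 350 of all genes were called. When single arrays were left out, between 72 and 85 were higher and between 12 and 17 lower, with the fewest higher without WT_DES array 2. Of the 144, 11 passed the filter on dim genes only through WT_DES. Among the other 133, 71 were higher and the median was 0.28. In aERKO none of the 144 was called by limma, and 2 had an unadjusted p below 0.05.

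**Figure D4:**
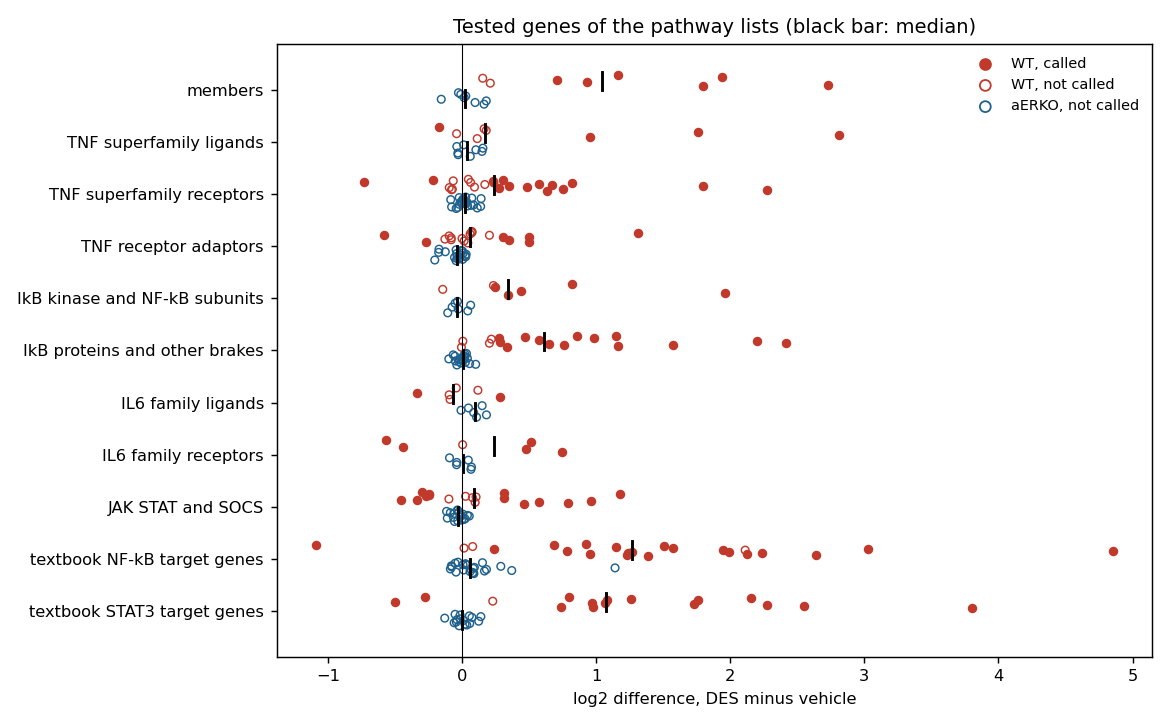
Log2 difference between DES and vehicle for each tested gene of the members and of the 10 other lists, in WT (red) and aERKO (blue). Filled points were called at a limma adjusted p below 0.05, open points were not, and black bars are list medians. The NF-kB and STAT3 target lists have WT medians of 1.26 and 1.07, and all aERKO points are open.

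Genes of the TNF superfamily were more often called higher than lower. Of 8 tested ligand genes 3 (37.5%) rose and 1 (12.5%) fell, against 20.7% and 23.3% of all genes tested. Tnfsf10, the death ligand TRAIL, rose by 2.81 ± 0.15 (SE), Tnfsf13b, the B cell survival factor BAFF, by 1.76, and Ltb, the lymphotoxin beta ligand of the second NF-kB route, by 0.95. Eda fell by 0.18, but lost its call with the hybridization controls, where it was at 0.18 in the other direction, and without any 1 of 6 arrays (WT_vehicle 1, 2 or 3, WT_DES 2 or 3, aERKO_vehicle 1). Of 23 tested receptor genes 12 (52.2%) rose and 2 (8.7%) fell. Tnfrsf1b, the TNF receptor most prominent on leukocytes, rose by 2.27 ± 0.13 (SE; limma adjusted p = 3.41e-08). Tnfrsf11b, the decoy receptor osteoprotegerin, rose by 1.80 but passed the filter only through WT_DES. Tnfrsf14 and the costimulatory receptor gene Cd40 rose by 0.82 and 0.75. Tnfrsf19 fell by 0.73, and Edar fell by 0.22, which was 0.14 without a call with the hybridization controls. Without any 1 of WT_vehicle 1, 2 or 3 and WT_DES 1 or 2, a single receptor gene was called lower. Tnfrsf1a, the widely expressed TNF receptor, which was chosen after its value was seen, rose by 0.63.

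Behind the receptors, most adaptor genes were not called. Of 19 tested, 5 (26.3%) rose and 2 (10.5%) fell, the first share near the 20.7% of all genes and the second below their 23.3%. The list had a median of 0.06 that was -0.01 with arrays shifted to the same median. Adam17, the protease that releases TNF from the cell surface, rose by 1.31 ± 0.09 (SE), and the adaptor Traf2 and the caspase-8 regulator Cflar by 0.50 each. Tab3 fell by 0.58 and Traf1 fell by 0.27. Neither was called with the hybridization controls, where Traf1 was at 0.09, and 1 of the decreases lost its call without WT_vehicle 1, WT_vehicle 3 or WT_DES 3. Of 7 tested genes of NF-kB subunits and IkB kinases 5 (71.4%) rose and none fell, although 1 was called lower with arrays shifted to the same median. Rel, the c-Rel subunit typical of lymphoid and myeloid cells, rose by 1.96 ± 0.14 (SE). The kinase genes Ikbke and Ikbkb rose by 0.82 and 0.44. Rela, the p65 subunit, rose by 0.34 and was not called after quantile normalization (0.17, limma adjusted p = 0.0817).

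Genes listed together as IkB proteins and other brakes of NF-kB were mostly higher. The list also holds TNF-induced genes, so not every entry is a brake. Whether the product of each gene restrains NF-kB was not tested. Beside the members 18 genes of this list were tested and 14 (77.8%) rose, against 20.7% of all genes tested. None fell, against 23.3%, and the median was 0.61 against -0.05. With arrays shifted to the same median 12 were called higher, and with the hybridization controls 17. Between 11 and 15 were called higher when single arrays were left out. Tnfaip2, a TNF-induced gene, rose by 2.20 ± 0.19 (SE), Nfkbiz, which encodes a nuclear IkB protein, by 1.57 ± 0.14 and Nfkbie, the gene of IkB epsilon, by 1.16 ± 0.11. Tnip3, a partner of A20, rose by 2.42 from a WT_vehicle level of 4.77, under the background control mean, and passed the filter only through WT_DES.

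In the IL6 family the shares of ligand genes called were near those of all genes. Of 6 tested ligand genes 1 (16.7%) rose and 1 (16.7%) fell, against 20.7% and 23.3% of all genes tested. Lif rose by 0.29, without a call after median scaling (0.21, limma adjusted p = 0.0754) or when WT_vehicle 2, WT_vehicle 3, WT_DES 2 or WT_DES 3 was left out. Ctf1 fell by 0.34, but was at 0.02 without a call with the hybridization controls, and no ligand gene was called lower without WT_vehicle 1 or WT_DES 2. Osm, the ligand of the Osmr receptor, chosen after its value was seen, was not called, at 6.79 in WT_vehicle and 6.69 in WT_DES (limma adjusted p = 0.384). Of 6 tested receptor genes beside Osmr 3 (50%) rose and 2 (33.3%) fell. Il6ra, the IL6-binding chain, rose by 0.74 ± 0.12 (SE), Il27ra by 0.51 and Il6st, the gp130 chain, by 0.47. Il31ra, whose product pairs with that of Osmr to bind IL31, fell by 0.57 ± 0.08, and Lifr, the leukemia inhibitory factor receptor, fell by 0.44. Neither decrease was called with the hybridization controls.

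Of 18 tested JAK, STAT and SOCS genes 7 (38.9%) rose and 6 (33.3%) fell, against 20.7% and 23.3% of all genes tested. With the hybridization controls 11 rose and none fell. Ptpn6, the leukocyte phosphatase SHP-1, rose by 1.18 ± 0.12 (SE), Stat3 by 0.96 ± 0.10, Jak2 by 0.79 and Stat2 by 0.57. Stat5b fell by 0.46 and Stat5a fell by 0.33. With the hybridization controls neither was called, and Stat5a was at 0.02.

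Textbook target genes of both routes were mostly higher. Of 23 tested NF-kB targets 19 (82.6%) rose and 1 (4.35%) fell, against 20.7% and 23.3% of all genes tested, with a median of 1.26. Of these 23, 7 passed the filter only through WT_DES, and among the other 16, 12 rose. The cytokine gene Il1b rose by 4.85 ± 0.20 (SE), the survival gene Bcl2a1a by 3.02, the adhesion molecule gene Vcam1 by 2.64 ± 0.11 and the neutrophil chemokine gene Cxcl5 by 2.23. Bcl2a1a has near-identical copies that its probes may not tell apart. Il1b, Bcl2a1a and Cxcl5 are among the 7. Plau, the urokinase gene, fell by 1.09 ± 0.15 (SE; limma adjusted p = 0.000103). Of 16 tested STAT3 targets 13 (81.2%) rose and 2 (12.5%) fell, with a median of 1.07. Of these 16, 2 passed the filter only through WT_DES, and among the other 14, 11 rose. The acute phase genes Saa3, Lcn2 and Hp rose by 3.80, 2.55 and 2.28, and A2m rose by 2.15, Saa3 and A2m being the 2. The kinase gene Pim3 fell by 0.50 and Myc fell by 0.28, without calls with the hybridization controls, where Myc was at 0.08. In the interaction, the response was larger in WT than in aERKO for 19 of 23 NF-kB and 13 of 16 STAT3 targets, against 14.1% of all genes tested. It was smaller for 1 of each, where 1841 of all 20102 genes were called smaller. These counts include the 7 and the 2 genes that passed the filter only through WT_DES.

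Markers of other cell types moved with the members. All 7 macrophage markers measured were called higher in WT_DES, against 20.7% of all genes tested, with a median of 2.14. Their summed linear level in aERKO was 1091 to 1196 with vehicle and 1122 to 1463 with DES, near that in WT_vehicle. All 8 neutrophil markers were called higher, but 4 of them passed the filter only through WT_DES. The list had sums of 380 to 393 in WT_vehicle and 4674 to 7637 in WT_DES, and 4 of its 8 markers lay under the background control mean on each WT_vehicle array. In aERKO the neutrophil sums were 351 to 429 with vehicle and 382 to 427 with DES.

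Lymphocyte and stromal markers rose as well, where 20.7% of all genes tested were called higher. Of 7 B and plasma cell markers 5 rose, with sums of 529 to 626 in WT_vehicle and 3227 to 3345 in WT_DES. Through WT_DES alone 2 of these 7 passed the filter, and among the other 5, 3 rose, with a median of 1.04. Of 7 T cell markers 6 rose, with sums of 505 to 613 and 1012 to 1473. Again 2 passed the filter through WT_DES alone, and among the other 5, 4 rose, with a median of 1.00. All 7 fibroblast markers rose, from 3385 to 4412 up to 11285 to 16364. Of 8 endothelial markers 7 rose, with sums of 1354 to 1536 and 2238 to 2802. The aERKO sums of these 4 lists overlapped between vehicle and DES.

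Structural markers of the gland moved in both directions. Epithelial markers summed to 10954 to 11478 in WT_vehicle and 12373 to 13079 in WT_DES. Of these 8, 4 (50%) were called higher and 2 (25%) lower, against 20.7% and 23.3% of all genes tested. Without WT_vehicle 3 or WT_DES 2, 1 was called lower. Scaling moved the epithelial count to 2 and 2 after quantile normalization, with a median of 0.03 in place of 0.22, and to 5 and 0 with the hybridization controls. In aERKO the epithelial sums did not overlap, at 10646 to 12079 with vehicle and 9803 to 10397 with DES. None of these 8 markers was called there by limma, 4 had an unadjusted p below 0.05, and their differences ran from -0.24 to -0.08. Smooth muscle markers summed to 23534 to 25835 and 17663 to 20421, with 6 of 8 (75%) called lower and none with the hybridization controls. Of the 8 secretory markers 5 (62.5%) were called lower, against 1 with those controls, where their median turned from -0.25 to 0.11. None of 6 tested adipocyte markers was called by limma, and 1 had an unadjusted p below 0.05. Without single arrays up to 2 were called higher, and without WT_vehicle 2 1 was called lower. What part these shifts had in the values of the members was not tested.

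The named genes outside all lists whose values followed a member most closely over the 12 arrays were found by Pearson correlation, given as a description. For Tnf they were Syk (0.998), Slc34a2 (0.997) and Sh3pxd2b (0.997), and for Osmr they were Lipa (0.999), Fcgr2b (0.999) and Dock11 (0.999). Tnfaip3 was closest to Lair1, Cyba and Stfa2l1, and Nfkb2 to St3gal4, Capn13 and Slc34a2. Birc3 was closest to App, Pip4k2b and Mctp2, and Nfkbia to Map4k4, Tpm3-rs7 and Nfe2l2. With 1 group far above the others, such correlations mostly restate the rise in WT_DES. Socs3 and Relb, without that rise, had closest genes at 0.960 (Adcy3) and 0.954 (Kcnq1).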

How the data were processed

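RNA of 12 seminal vesicle samples, 3 in each of 4 groups taken from the sample titles, was measured on Affymetrix arrays from 300 ng of total RNA. The authors deposited log2 values for each probe set. Per the submitters' processing notes they came from RMA, run in Affymetrix Expression Console. Its version and settings, and a build, were not given in the sources used here. RMA brings the probe intensities of the arrays to a common distribution, but medians of the deposited values still ran from 5.95 to 6.14. Whether this scaling pushed some genes slightly down where many rose was not tested.

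Of 72688 probe sets, 30604 had 1 gene symbol, 2146 several and 39938 none. Symbols were updated through the GRCm38.p6 gene table (1135 changed), and the probe set with the highest mean stood for a gene. Genes above the array median on at least 3 arrays were tested with limma 3.58.1 in R 4.3.3 (lmFit, eBayes, all 12 arrays, two-sided, Benjamini-Hochberg over 20102 genes) in 5 comparisons. Residual degrees of freedom were 8 and prior ones 4.33, and the fit was tested on simulated data. With 3 arrays against 3, an exact permutation p is at least 0.1.

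The members and lists were chosen with earlier results of these data known. Named genes are the members, Esr1, up to 4 called genes with the largest differences per list, up to 2 of the opposite direction, and the 3 genes most like each member. Alternatives changed the filter, probe set choice, moderation, weights, scaling, block and arrays used.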

Additional observations from a re-analysis of the deposited data

Results flagged for a closer look

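The response to DES differed between the genotypes, by limma's test of the interaction, for 6 of the 8 tested members. All 6 were larger in WT, as were 14.1% of all genes tested. The WT response minus the aERKO response was 2.63 for Osmr, 1.95 for Tnfaip3, 1.63 for Tnf, 1.19 for Birc3, 1.08 for Nfkbia and 0.69 for Nfkb2, on the log2 scale. In each case all 3 WT_DES arrays lay above the other 9 arrays, as they did for 20.7% of all genes tested. Groups of 3 arrays are too small for a test of single outlying arrays.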

How the results depend on the processing

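The count of members called was recomputed under 23 alternative settings, 12 of which left out 1 array. Of 114 recomputed counts over the 5 comparisons, 103 equalled the reported one and all were within 1.5 times of it. Leaving out single arrays gave 6 called higher after DES in WT each time. The largest count in that comparison was 8, with the hybridization controls. Without the filter on dim genes it was 7, the added gene being Il6. The replicate number as a block gave 7 in WT, with Relb added (0.15, limma adjusted p = 0.049), and 7 between genotypes given DES, again with Relb. It changed no other call of a member. Deviations of same-numbered arrays from their group means correlated at -0.355 to 0.52. The 6 of 18 pairs above 0.1 were those numbered 2 (0.18 to 0.224) and 3 (0.371 to 0.52) in WT_DES, aERKO_vehicle and aERKO_DES. Differently numbered arrays correlated at up to 0.584, and 4 of 12 arrays correlated best with their own number. The labels do not say what a number marks, and not every pair exceeded 0.1, so the samples were not treated as paired.

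Of 912 recomputed values of single members, 874 kept direction and side of the threshold, 9 newly passed, none was lost and 29 turned sign, none of them in a called result. With array weights, Nfkb2 (-0.047), Relb (-0.031) and Birc3 (0.034) turned after DES in aERKO, and Socs3 (0.024) between genotypes given vehicle. After quantile normalization Birc3 was 0.017 in aERKO, and Socs3 was -0.070 in the interaction and 0.062 between genotypes given DES. With arrays shifted to the same median Tnfaip3 was 0.00032 in aERKO, and Socs3 was -0.051 in the interaction and 0.034 between genotypes given DES. With the hybridization controls Tnfaip3 (0.12) and Birc3 (0.10) turned in aERKO. The causes were not tested.

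With 1 array left out, the differences after DES in aERKO ran from -0.077 to 0.025 for Tnfaip3, -0.051 to 0.055 for Nfkb2, -0.090 to 0.046 for Birc3 and -0.027 to 0.055 for Relb. Given vehicle, the genotype differences ran from -0.14 to 0.020 for Tnf, -0.080 to 0.067 for Socs3, -0.062 to 0.0056 for Nfkb2 and -0.10 to 0.019 for Osmr. Socs3 ran from -0.050 to 0.14 in the interaction and from -0.16 to 0.028 given DES.

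Il6 is limited by signal near background. With the hybridization controls the median of all genes tested after DES in WT was 0.31, so small differences in either direction depend on scaling.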

Other observations

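The B cell survival route of the TNF superfamily was looked at after its values were seen. Beside the rise of its ligand gene Tnfsf13b by 1.76, the receptor gene Tnfrsf13c rose by 0.57 in WT_DES (limma adjusted p = 0.00296). The receptor genes Tnfrsf13b (0.17, adjusted p = 0.122) and Tnfrsf17 (0.24, adjusted p = 0.228) were not called. Among receptors of death ligands, the TRAIL receptor gene Tnfrsf10b rose by 0.48 (adjusted p = 0.00408) beside the rise of Tnfsf10, while Fas (-0.07, adjusted p = 0.606) was not called.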
